A study of Mus musculus with 6 samples.

Results

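The genes described here encode the proteins of the mitochondrial ribosome. Every gene whose symbol was Mrpl or Mrps followed by a number was taken, which gave 76 of the 19505 named genes on the arrays, 48 of the large subunit by name (Mrpl) and 28 of the small subunit by name (Mrps). RNA came from the hearts of Balb/c mice, 3 in a sham group and 3 in a CKD group, all male per the methods, and was measured on Affymetrix Clariom S arrays, with 1 array per mouse. CKD mice had 2/3 of the right renal cortex electrocoagulated at 8 weeks of age and lost the left kidney 2 weeks later, whereas sham mice had a laparotomy that spared the kidneys. The methods list sham and CKD Balb/c mice kept on a normal diet for 8 weeks, and others kept for longer. The labels do not say which of these gave the hearts, so their diet and time after surgery are not certain. No genetic change is given for either group. Values are log2 levels after robust multiarray averaging (RMA), so a difference of 1 is a 2-fold change.

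Mitochondria translate the few subunits of the respiratory chain and of ATP synthase that their own genome encodes. They do so on a ribosome whose RNAs are mitochondrial and whose proteins are all made from nuclear genes and imported. The large subunit joins amino acids and holds the exit tunnel, and the small subunit reads the mRNA. Some of these proteins have bacterial relatives and others are found only in mitochondria. The heart relies on this machinery heavily, and inherited defects of several of these proteins cause cardiomyopathy in humans. The study looked for genome-wide changes of transcription in the heart of CKD mice, and the comparison here reads this gene family from the same arrays.

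Tissue markers and arrays were read first. Array medians lay between 4.83 and 4.86, and the 12 cardiac muscle markers had a median level of 18.41 with none called (fold over 1.5 and unadjusted p under 0.05, which 6.32% of all genes passed). Of these 12 markers 10 lay below 0. The mean levels of Tnnt2, Myl2, Pln and Atp2a2 were 19.90 to 19.91, where the highest of all genes was 19.92. These could hardly have read higher in CKD, so the lack of a call says little for them. Of 7 atrial markers 3 were called higher in CKD, namely Myl4, Sln and Bmp10, and 6 of 7 lay above 0, with a median log2 fold change of 3.16. Myl4 read 10.91, 7.72 and 6.29 in sham and 11.01, 11.53 and 15.29 in CKD hearts. The summed log2 level of the list, which ran from 18.56 to 19.20 in sham and from 18.11 to 19.53 in CKD hearts, is mostly that of Nppa, the only atrial marker below 0 (−0.52). Of 9 macrophage markers 3 were called lower, with a median of −0.69 and a summed log2 level of 14.15 to 15.67 in sham and 13.92 to 14.82 in CKD hearts. Markers called higher were 2 of 8 of smooth muscle and pericytes (Cnn1, 1.64, and Myh11, 0.66), 1 of 8 of adipocytes (Ucp1, 1.09, with all 8 above 0), 1 of 8 of lymphocytes (Jchain, 3.05) and 1 of 2 of erythroid cells (Alas2, 2.96). None was called among 9 endothelial, 9 fibroblast and 8 skeletal muscle markers, although each list leaned to 1 side. Of the endothelial markers 8 of 9 lay below 0 (median −0.24). Above 0 lay 7 of 9 fibroblast markers (median 0.32) and 7 of 8 skeletal muscle markers (median 0.195). The Y-linked gene Uty read 4.48, 2.08 and 2.17 in sham and 4.67, 4.29 and 7.97 in CKD hearts, an uneven level for mice that were all male by the methods. In Uty and Myl4, sham replicate 1 lay close to CKD replicate 1, and CKD replicate 3 was highest. The part of tissue make-up in the differences of the mitoribosome genes was not tested, and in tissue RNA fewer cells of a type and less RNA per cell cannot be told apart.

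All 76 genes were tested, each with 1 probe set, and no filter on low values was used. Mean log2 levels ran from 4.25 for Mrpl54 to 18.39 for Mrpl42, and 60 of the 76 genes lay above a log2 level of 8.05, the upper quartile of all genes. The probe sets with the highest signal were those of Mrpl42, Mrpl33, Mrpl51 and Mrps33, and those with the lowest were of Mrpl54, Mrpl36, Mrpl43 and Mrpl22. Since signals of different probe sets also depend on their probes, levels were compared only between arrays. None of these 8 genes passed the criterion for change. Mrpl42, a mitochondria-specific protein of the large subunit, read 18.60, 18.31 and 18.32 in sham and 18.58, 18.39 and 18.16 in CKD hearts, so the groups overlapped widely.

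Genes were called changed at a fold change over 1.5 together with an unadjusted p under 0.05 from limma across all genes. By this criterion 7 of the 76 genes were called (9.21%), against 6.32% of all genes tested. Of these, 4 were lower in CKD, against a background of 3.19% of all genes, and 3 were higher, against 3.13%. The family is brighter than most genes, and its share did not exceed that of all genes once dim genes were left out. Without the dimmest 25% of genes, 6.58% of the family and 7.87% of all genes kept were called. Without the dimmest 50% the shares were 6.67% and 9.01%. None of the 76 passed an adjusted p of 0.05, where 9 had an unadjusted p under 0.05 and 2 of all genes passed the adjusted limit. The smallest adjusted p among the 76 was 0.34. With 3 hearts against 3, an exact two-sided permutation test of a single gene cannot go below p = 0.1. Most genes of the family differed little, with 45 of 76 (59.2%) within 0.25 log2 units of 0, against 60.5% of all genes. The 95% confidence interval lay wholly within the 1.5-fold limits for 16 genes. The count of 7 was 12 without CKD replicate 1, against 10.4% of all genes, and 10 without sham replicate 1, against 8.48%. It was 4 without sham replicate 3, against 5.03%, and 3 without CKD replicate 3, against 5.67%.

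**Figure D1:**
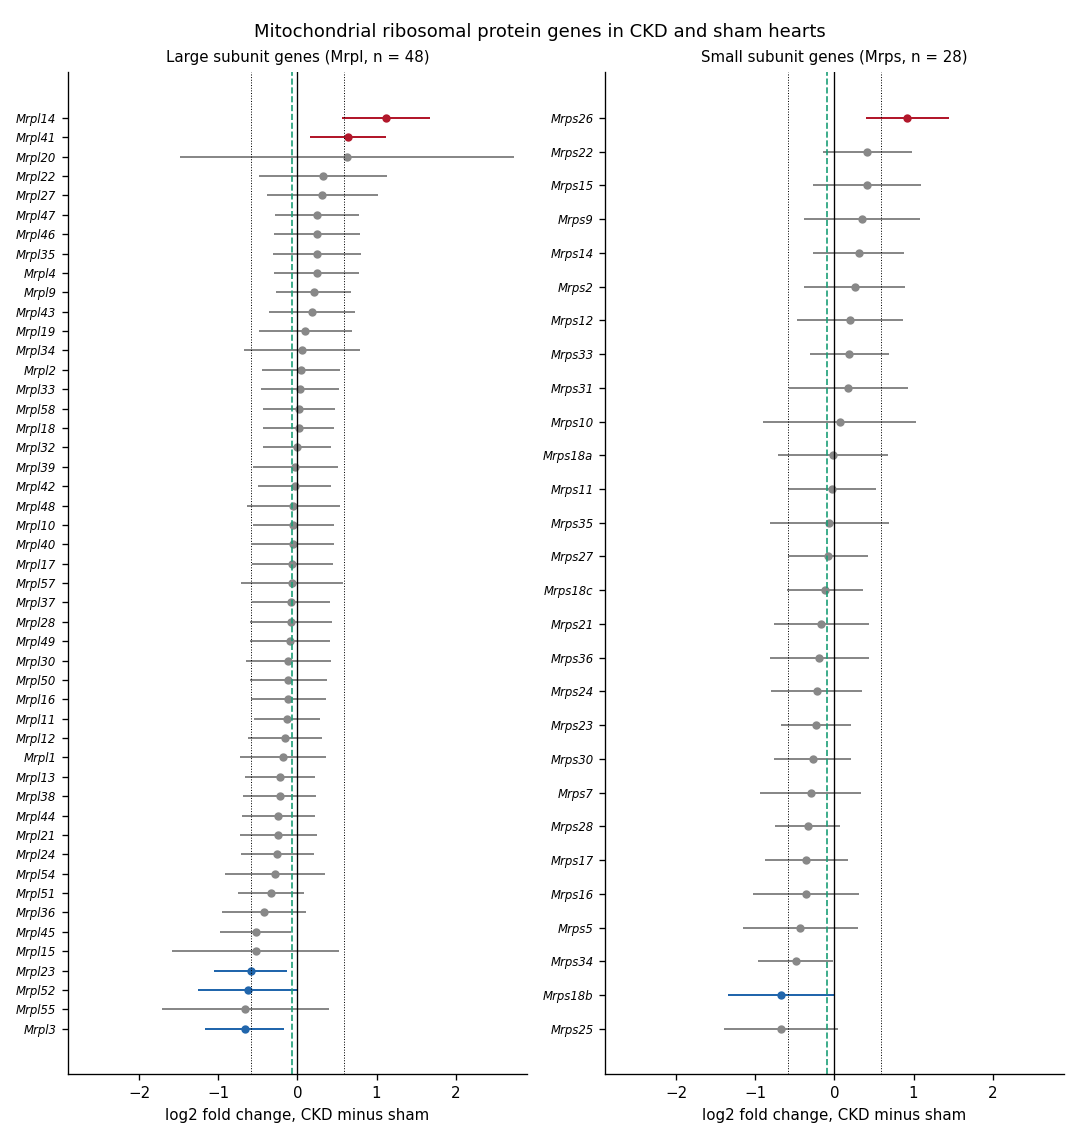
Each point is the log2 fold change (CKD minus sham, 3 hearts per group) of 1 gene and each bar its 95% confidence interval, with large subunit genes on the left and small subunit genes on the right. Dotted lines mark a 1.5-fold difference and the dashed green line the median of the panel. The 3 genes called higher (red) are Mrpl14, Mrpl41 and Mrps26, the 4 called lower (blue) are Mrpl3, Mrpl23, Mrpl52 and Mrps18b, and the rest are grey.

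The 3 genes called higher were Mrpl14, Mrpl41 and Mrps26. Mrpl14 (chr17:45685722-45698495) is a bacterial-type protein of the large subunit on the face turned to the small subunit, where the assembly factor Malsu1 docks in human mitoribosomes. Its log2 level was 6.48, 6.87 and 6.88 in sham hearts and 7.44, 8.16 and 7.98 in CKD hearts. The groups did not overlap, and Mrpl14 had the smallest p of the family, with a fold of 2.17 (log2 fold change 1.12, SE 0.24, n = 3 per group, limma adjusted p = 0.34). It was the only gene of the family past a 2-fold difference at an unadjusted p under 0.05. Its annotated span shares 622 bases with that of Tmem63b, whose own log2 difference was 0.30.

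Mrps26, a mitochondria-specific protein of the small subunit encoded at chr2:130563757-130565394, read 7.77, 7.32 and 7.34 in sham hearts and 8.16, 8.74 and 8.30 in CKD hearts. All CKD hearts lay above all sham hearts, with a fold of 1.90 (log2 fold change 0.92, SE 0.23, n = 3 per group, limma adjusted p = 0.34). Mrpl41, a mitochondria-specific protein of the large subunit, encoded at chr2:24972470-24975098, read 7.90, 7.76 and 7.86 in sham hearts and 8.15, 8.59 and 8.71 in CKD hearts. Its groups did not overlap either, and the sham hearts were close together (log2 fold change 0.64, SE 0.21, n = 3 per group, limma adjusted p = 0.43). Mrpl14 and Mrps26 kept the call without any single heart, whereas Mrpl41 fell to a log2 difference of 0.53 and lost it without CKD replicate 3.

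Among the genes called lower, Mrpl3 (chr9:105053268-105077466) and Mrpl23 (chr7:142532467-142540747) encode bacterial-type proteins of the large subunit. Mutations of MRPL3 are a known cause of cardiomyopathy in humans, and Mrpl23 sits at the mouth of the exit tunnel. Mrpl3 read 10.29, 10.39 and 10.46 in sham hearts and 10.10, 9.52 and 9.52 in CKD hearts, a fold of 0.63 (log2 fold change −0.67, SE 0.22, n = 3 per group, limma adjusted p = 0.43). CKD replicate 1 lay close under the sham hearts and the other CKD hearts well below them. Mrpl23 read 11.14, 11.54 and 11.61 in sham hearts and 10.88, 10.87 and 10.77 in CKD hearts (log2 fold change −0.59, SE 0.20, n = 3 per group, limma adjusted p = 0.45). Here the CKD hearts were close together and all below the lowest sham heart, sham replicate 1. Mrpl3 lost the call without CKD replicate 2 or 3 (−0.57 each), and Mrpl23 lost it when sham replicate 2 (−0.54), sham replicate 3 (−0.50) or CKD replicate 3 (−0.56) was left out or the arrays were quantile normalized again (−0.57).

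Mrpl52 (chr14:54426909-54429750) and Mrps18b (chr17:35910380-35916440, which shares 141 bases with the noncoding gene Gm16279), both classed as mitochondria-specific, were also called lower, but with overlapping groups. Mrpl52 of the large subunit read 8.73, 9.60 and 9.36 in sham hearts and 8.85, 8.73 and 8.22 in CKD hearts (log2 fold change −0.63, SE 0.27, n = 3 per group, limma adjusted p = 0.54). Sham replicate 1 was as low as CKD replicate 2. Mrps18b of the small subunit read 8.59, 9.34 and 9.0 in sham hearts and 7.74, 8.60 and 8.58 in CKD hearts (log2 fold change −0.67, SE 0.29, n = 3 per group, limma adjusted p = 0.54). Only CKD replicate 1 lay clear of the sham hearts. Mrpl52 lost the call when sham replicate 2 (−0.44), sham replicate 3 (−0.57), CKD replicate 2 (−0.69) or CKD replicate 3 (−0.44) was left out, and Mrps18b when sham replicate 2 (−0.49), sham replicate 3 (−0.66) or CKD replicate 1 (−0.39) was. Both also missed the p with the methods' t-test and with the dimmest 25% of genes left out.

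**Figure D2:**
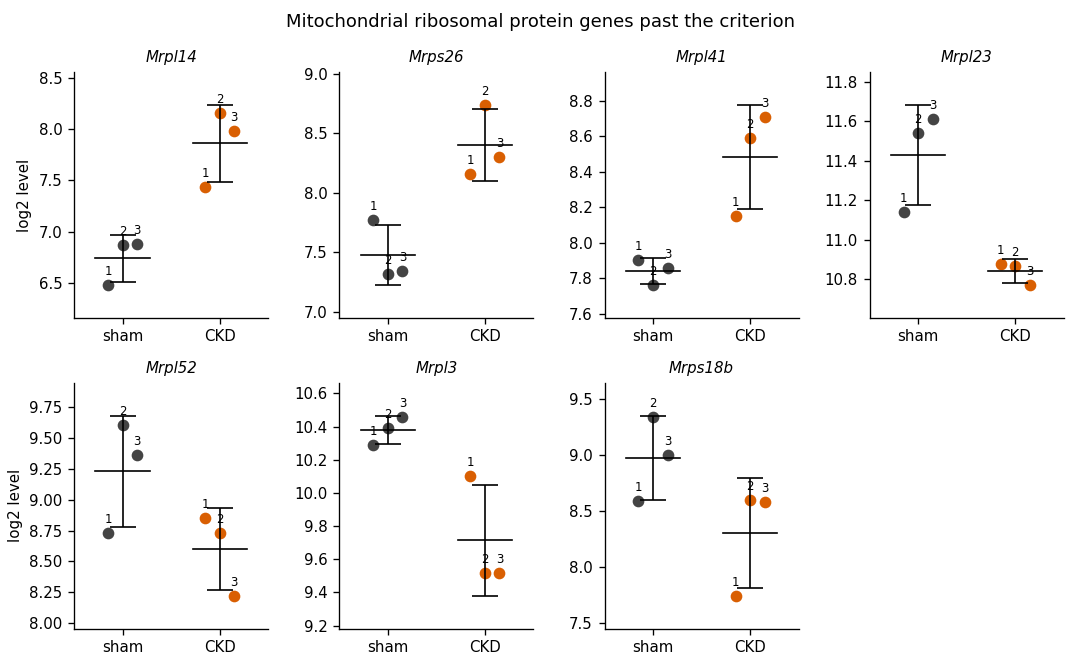
Points are the log2 levels of the 7 called genes in each heart, numbered by replicate (sham grey, CKD orange, n = 3 per group), with the group mean as a line and 1 SD as error bars. Each panel has its own scale. CKD points lie above sham points for Mrpl14, Mrps26 and Mrpl41 and below them for Mrpl23 and Mrpl3, and the groups overlap for Mrpl52 and Mrps18b.

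The mouse has 3 paralogs named Mrps18, which occupy different places in the assembled ribosome. Mrps18c is the bacterial-type protein of the small subunit, Mrps18b is another small subunit protein and Mrps18a sits in the large subunit. As paralogs of Mrps18c, Mrps18a and Mrps18b share its bacterial relatives, but both were classed as mitochondria-specific here. The log2 fold changes of the paralogs were −0.12 for Mrps18c (SE 0.21), −0.67 for Mrps18b (SE 0.29) and −0.02 for Mrps18a (SE 0.30). The differences among the paralogs were not tested, and the 95% interval of Mrps18b (−1.33 to −0.01) overlapped those of Mrps18c (−0.58 to 0.34) and Mrps18a (−0.70 to 0.67).

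Several further genes came close to the limits. Mrpl45, which anchors the tunnel exit to the inner membrane, read 12.16, 11.91 and 12.25 in sham hearts and 11.73, 11.56 and 11.44 in CKD hearts. All CKD hearts were lower, but the log2 fold change of −0.53 (SE 0.19, limma adjusted p = 0.46) missed the fold limit. The mitochondria-specific small subunit protein Mrps34 read 8.46, 8.03 and 8.36 against 8.0, 7.76 and 7.62 and missed the fold limit likewise (log2 fold change −0.49, SE 0.21). Mrps25, another such protein, was past the fold limit but not the p (log2 fold change −0.68, SE 0.31, limma adjusted p = 0.57). Over the family, CKD hearts all lay below sham hearts for 6 genes (7.89%, against 6.71% of all genes), namely Mrpl3, Mrpl23, Mrpl45, Mrpl51, Mrps28 and Mrps34. They all lay above for 4 genes (5.26%, against 6.93% of all genes), namely Mrpl14, Mrpl41, Mrps22 and Mrps26.

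The promoters of the called genes were inspected next, because binding sites of NRF1, of ETS factors such as GABP and of YY1 are known at many promoters of mitoribosome genes. Windows of 300 bases, from 250 before to 50 after the annotated start, were taken from RefSeq on GRCm38.p6, which holds 1 or more for 67 of the 76 genes. Exact matches to GCGCATGC (NRF1), CCGGAAGT (ETS) and AAGATGGCG (YY1) were sought on both strands. None of these contains another, and the NRF1 letters can match both strands 2 bases apart. At least 1 of the 3 was present at 26 of the 67 genes (38.8%), against 8.5% of the 27025 genes with a window and 19.8% of the array genes above the upper quartile of levels. For NRF1 the shares were 8 of 67 genes (11.9%) against 3.0% and 6.5%, for ETS 12 of 67 (17.9%) against 4.3% and 10.1%, and for YY1 8 of 67 (11.9%) against 1.6% and 4.5%. The NRF1 letters occurred at 7 of 42 large subunit genes and 1 of 25 small subunit genes, at Mrps18b. Of the called genes, Mrpl3, Mrpl52, Mrps26 and Mrps18b held a match and Mrpl14, Mrpl23 and Mrpl41 held none. The windows of Mrpl14 and Mrpl23 lay inside the annotated gene spans. For these genes the sequence before the outer end of the span was not searched.

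The windows of the 4 called genes with a match, and of Mrpl14 as the called gene with the largest difference, are given 5′ to 3′ on the gene's strand, with matches in capitals. Those of Mrpl3 (chr9:105053018-105053317, plus strand), Mrpl52 (chr14:54426659-54426958, plus strand) and Mrps26 (chr2:130563507-130563806, plus strand) each hold the ETS letters, starting at −19, 2 and −15 relative to the start site. That of Mrps18b (chr17:35916391-35916690, minus strand) holds the NRF1 letters at −223 and 29. That of Mrpl14 (chr17:45686099-45686398, plus strand), which lies inside the gene's annotated span, holds none of the 3.
Mrpl3: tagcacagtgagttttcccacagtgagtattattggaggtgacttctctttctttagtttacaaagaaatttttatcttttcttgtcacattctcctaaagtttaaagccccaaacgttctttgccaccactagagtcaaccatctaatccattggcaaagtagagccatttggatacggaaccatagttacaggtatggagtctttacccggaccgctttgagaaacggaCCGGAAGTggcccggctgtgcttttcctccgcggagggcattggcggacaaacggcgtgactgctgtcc
Mrpl52: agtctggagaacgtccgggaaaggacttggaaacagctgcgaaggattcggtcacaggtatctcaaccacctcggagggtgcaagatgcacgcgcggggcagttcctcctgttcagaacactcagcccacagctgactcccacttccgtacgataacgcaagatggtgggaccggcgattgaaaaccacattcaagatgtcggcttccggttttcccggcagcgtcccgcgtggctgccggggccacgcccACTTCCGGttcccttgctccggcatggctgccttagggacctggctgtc
Mrps26: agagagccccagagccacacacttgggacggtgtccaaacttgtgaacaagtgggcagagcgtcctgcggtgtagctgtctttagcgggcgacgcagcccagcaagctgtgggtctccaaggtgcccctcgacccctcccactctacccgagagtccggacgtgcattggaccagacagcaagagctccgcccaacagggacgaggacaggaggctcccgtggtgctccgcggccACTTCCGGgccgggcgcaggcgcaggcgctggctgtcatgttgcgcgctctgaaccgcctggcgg
Mrps18b: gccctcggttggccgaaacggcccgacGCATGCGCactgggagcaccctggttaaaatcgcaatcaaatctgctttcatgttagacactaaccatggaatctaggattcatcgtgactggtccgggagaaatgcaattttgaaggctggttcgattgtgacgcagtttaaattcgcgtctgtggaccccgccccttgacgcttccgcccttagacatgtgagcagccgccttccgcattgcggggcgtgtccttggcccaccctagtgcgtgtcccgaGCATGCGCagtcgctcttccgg
Mrpl14: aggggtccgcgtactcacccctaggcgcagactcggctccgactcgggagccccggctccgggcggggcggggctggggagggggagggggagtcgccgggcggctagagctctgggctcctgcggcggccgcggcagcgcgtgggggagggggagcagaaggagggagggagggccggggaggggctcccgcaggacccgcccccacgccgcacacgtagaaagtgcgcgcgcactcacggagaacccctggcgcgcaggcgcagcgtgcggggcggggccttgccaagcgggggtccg
The ETS letters thus stood close to the start site of 2 genes called lower and 1 called higher.

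Some of these promoters are shared with a gene that runs the other way. A measured divergent neighbour within 1000 bases was annotated for 23 of the 67 genes with a window. None of these neighbours passed the criterion, against 6.32% of all genes. The start site used for Mrpl14 lies 131 bases from that of Tmem63b, a membrane channel gene, which differed by 0.30 (SE 0.227). Mrpl47 starts 308 bases from Ndufb5, a complex I subunit, and their log2 fold changes were 0.25 and −0.53. Mrpl46 and Mrps11 start 42 bases apart and differed by 0.25 and −0.03.

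Large and small subunit genes were then compared. Of 48 large subunit genes 3 were called lower (Mrpl3, Mrpl23 and Mrpl52) and 2 higher (Mrpl14 and Mrpl41), and of 28 small subunit genes 1 was lower (Mrps18b) and 1 higher (Mrps26). These were 10.4% of the large and 7.14% of the small subunit genes, against 6.32% of all genes. The median log2 fold change was −0.07 over the large and −0.10 over the small subunit genes, against −0.00 over all genes. Log2 fold changes were below 0 for 31 of 48 and 18 of 28 genes, against 50.7% of all genes. The median fold changes of the subunits differed by 0.03. In single hearts, the median of levels centred on each gene's mean had an SD between replicates of 0.121 for the large and 0.149 for the small subunit. The SD of the large minus small difference was 0.059. These SDs are of single hearts and are not the error of the median log2 fold changes. Genes of 1 ribosome are not replicates, so no test was run on these medians.

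With each gene centred on its mean over the 6 arrays, the median of the large subunit genes was −0.12, 0.08 and 0.16 in sham replicates 1 to 3 and −0.06, 0.01 and −0.18 in CKD replicates 1 to 3. The small subunit genes read −0.17, 0.13 and 0.24 in sham hearts and −0.06, −0.04 and −0.12 in CKD hearts. In each heart the subunits thus stood on nearly the same side, and sham replicate 1 lay below the other sham hearts and within or below the CKD range. It held the lowest sham level for 52 of the 76 genes (68.4%), against 37.8% of all genes. Without it the small subunit median was −0.28 and the difference between the subunits 0.16. Without sham replicate 3 the small subunit median was 0.04 and the difference turned to −0.08.

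**Figure D3:**
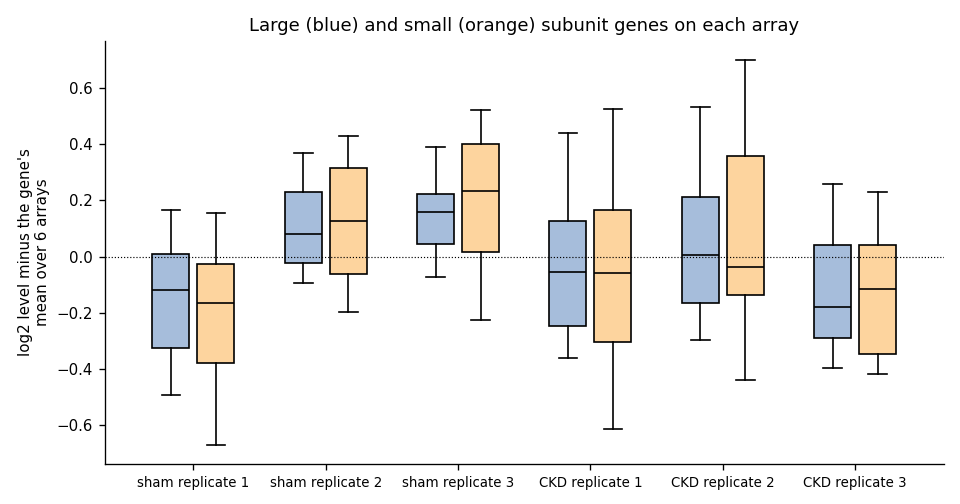
Boxes show, for each heart, the log2 level minus the gene's mean over the 6 arrays for 48 large subunit genes (blue) and 28 small subunit genes (orange), with the median, the quartiles and whiskers at the 10th and 90th percentiles. The blue and orange medians move together between hearts, lowest in sham replicate 1 for the small subunit (−0.17) and in CKD replicate 3 for the large subunit (−0.18).

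Gene names do not always match the place of the protein. Mrps30 and Mrps18a belong to the large subunit, and Mrps36 is now known as a component of the 2-oxoglutarate dehydrogenase complex. With these 3 reassigned, the medians were −0.07 over 50 large subunit genes and −0.08 over 25 small subunit genes. Of these 75 genes, 45 were classed as bacterial-type, with 2 called lower, 1 called higher and a median of −0.06. The 30 classed as mitochondria-specific, with Mrps18a and Mrps18b among them, had 2 called lower, 2 called higher and a median of −0.07. In the large subunit, log2 fold changes were below 0 for 17 of 30 bacterial-type genes, with 3 called, and for 16 of 20 mitochondria-specific genes, with 2 called. In the small subunit they were below 0 for 9 of 15 bacterial-type genes, with none called, and for 6 of 10 mitochondria-specific genes, with 2 called. Over all genes 50.7% were below 0 and 6.32% were called.

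Some genes varied widely among the CKD hearts. The range over the 3 CKD hearts exceeded 1 log2 unit for 10 of the 76 genes, against 13.7% of all genes, and over the sham hearts for 7, against 6.7%. Mrpl20, a bacterial-type protein needed for assembly of the large subunit in bacteria, varied most. It read 10.87, 12.66 and 12.51 in sham hearts and 10.81, 15.02 and 12.09 in CKD hearts, so replicate 1 was lowest in both groups and CKD replicate 2 far above all others. Its log2 fold change of 0.63 was smaller than its SE of 0.93. Mrpl55, a large subunit protein of bacterial type despite its high number, read 11.81, 11.50 and 11.57 in sham hearts and 12.11, 9.90 and 10.90 in CKD hearts (log2 fold change −0.66, SE 0.46). Mrpl15 of the large subunit read 9.73, 10.25 and 10.17 against 8.43, 10.60 and 9.53 (log2 fold change −0.53, SE 0.46). Which CKD heart was highest thus differed from gene to gene.

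**Figure D4:**
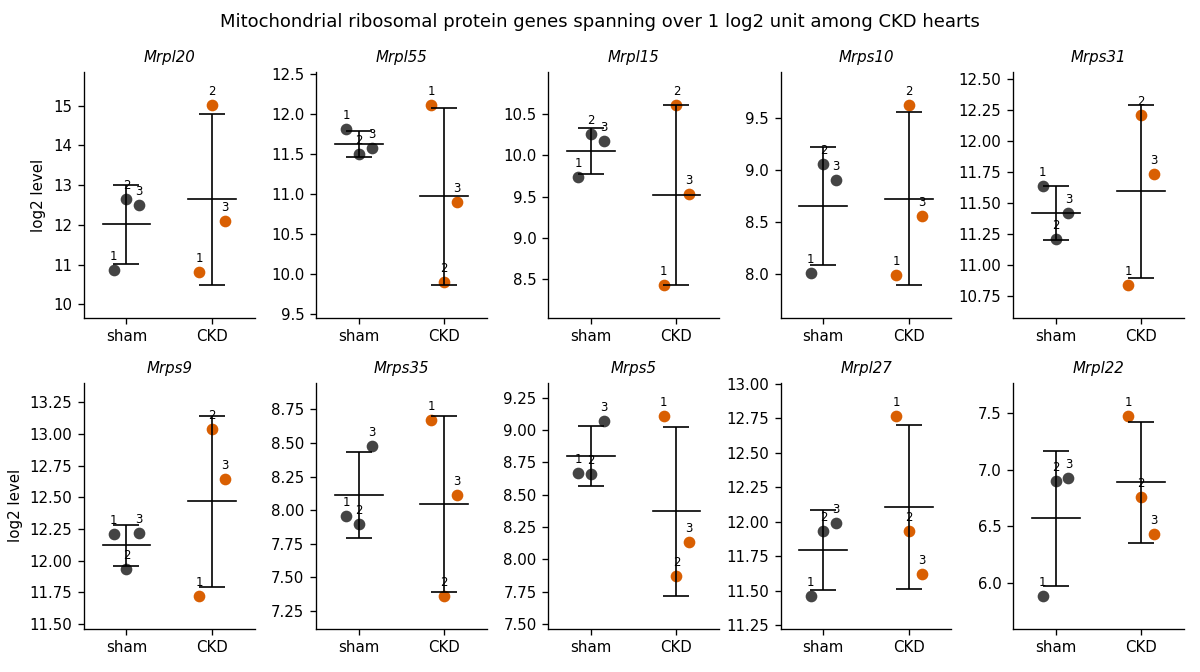
Points are log2 levels per heart, numbered by replicate, for the 10 genes whose CKD hearts (orange) span more than 1 log2 unit, with sham hearts in grey, group means as lines and 1 SD as error bars (n = 3 per group). Each panel has its own scale. CKD replicates 1 and 2 hold opposite ends in most panels, with Mrpl20 from 10.81 to 15.02.

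Genes that build, serve or control the mitoribosome were read beside it. Of the proteins without an Mrpl or Mrps symbol, 4 of 5 were measured and none was called, against 6.32% of all genes. Dap3, the GTP-binding protein of the small subunit, read 11.81, 11.62 and 11.66 in sham hearts and 11.03, 11.23 and 11.51 in CKD hearts, all lower in CKD, with a log2 fold change of −0.44 (SE 0.20, limma adjusted p = 0.55). Gadd45gip1 of the large subunit differed by −0.05, Chchd1 of the small subunit by 0.04 and Ptcd3 of the small subunit by 0.19. The groups overlapped for these last 3 genes.

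Of 28 assembly genes 2 were called lower and none higher (7.14%, against 6.32% of all genes), with a median of −0.05. These were Mpv17l2, an inner membrane protein needed for ribosome assembly (7.11, 7.53 and 7.71 in sham, 6.26, 6.99 and 6.83 in CKD hearts, log2 fold change −0.76, SE 0.25), and Mrm3, which methylates the large ribosomal RNA. Mrm3 read 6.83, 6.71 and 7.03 in sham hearts and 6.58, 5.66 and 6.19 in CKD hearts (log2 fold change −0.71, SE 0.25). Neither overlapped between groups, where CKD hearts all lay below sham hearts for 6.71% of all genes.

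Of 16 genes listed as translation factors 1 was called (6.25%, against 6.32% of all genes), Lrpprc, which stabilises mitochondrial mRNAs. It was higher in CKD, with 9.35, 9.08 and 9.22 in sham hearts and 9.84, 9.61 and 10.42 in CKD hearts (log2 fold change 0.74, SE 0.24). The median of this list was 0.00. The list was drawn broadly, and Lrpprc, Slirp, Oxa1l and Letm1 in it are not translation factors in the strict sense. Of 19 genes for the charging of mitochondrial tRNAs, most of them aminoacyl-tRNA synthetases, Cars2 alone was called, lower in CKD (log2 fold change −0.65, SE 0.26). This was a share of 5.26%, against 6.32% of all genes. The median of the 19 was −0.22, and 14 of 19 lay below 0, against 50.7% of all genes. The 19 include Qrsl1 (−0.54), Gatb (−0.33) and Gatc (−0.49), which encode subunits of an amidotransferase and not synthetases. None of 15 genes of mitochondrial transcription and RNA processing was called, with a median of 0.11, and Fastkd3, which acts on mitochondrial mRNAs, had the smallest p among them (log2 fold change −0.42, SE 0.21).

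Of the factors known to act at mitoribosome gene promoters 9 were measured and 3 were called, against 6.32% of all genes. Nrf1, the transcription factor whose letters were sought above, was lower in CKD, with 6.84, 6.59 and 6.14 in sham hearts and 5.64, 5.89 and 6.13 in CKD hearts (log2 fold change −0.64, SE 0.24). Ppargc1a, which encodes the coactivator PGC1α, read 15.51, 15.56 and 15.86 against 14.72, 15.16 and 15.10 (log2 fold change −0.65, SE 0.21). Gabpb1, a subunit of GABP, was higher, with 6.11, 6.40 and 6.62 in sham hearts and 7.12, 7.05 and 7.20 in CKD hearts (log2 fold change 0.75, SE 0.20). Ppargc1a was picked out by the study on these same hearts. The study also reported target genes of PGC1α as inhibited on these arrays. By quantitative PCR it named TFAM, ERRα and NRF1 as targets lower in CKD hearts. On the arrays Tfam differed by 0.07 (SE 0.20) with overlapping groups, and Esrra, the gene of ERRα, was not measured. The direction of neither Ppargc1a nor Nrf1 is thus independent evidence. The groups did not overlap for Nrf1, Ppargc1a or Gabpb1, although those of Nrf1 almost touched. Over all genes, CKD hearts all lay below sham hearts for 6.71% and all above for 6.93%. The others were not called, namely Gabpa (0.35), Gabpb2 (−0.03), Yy1 (0.10), Ppargc1b (−0.24), Pprc1 (0.15) and Myc (−0.36). The smallest adjusted p among these factors was 0.35.

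**Figure D5:**
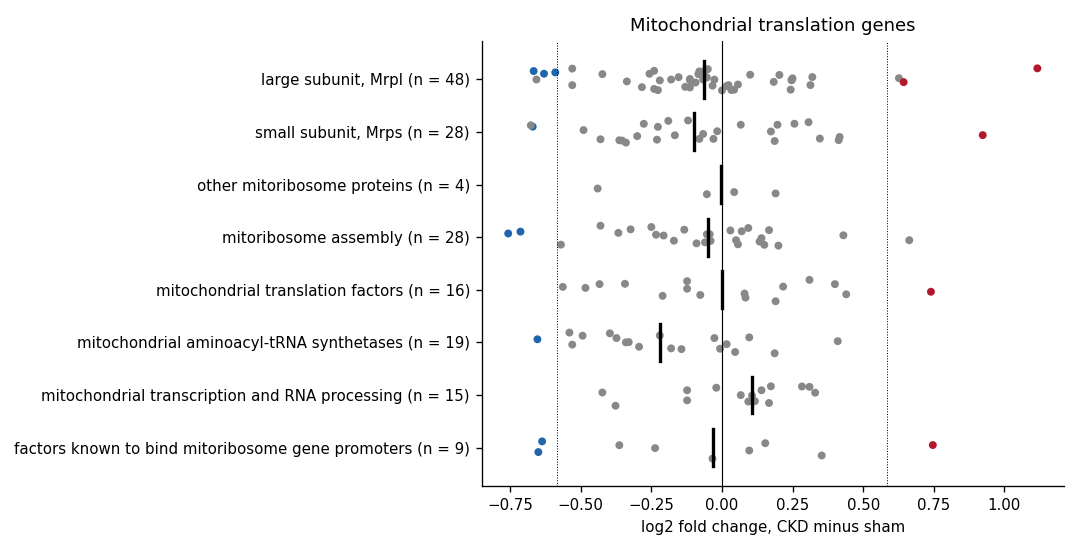
Each point is the log2 fold change (CKD minus sham, n = 3 per group) of 1 gene, in rows by role, with genes called higher in red, called lower in blue and others in grey. Black bars are row medians, and dotted lines mark a 1.5-fold difference. The medians run from −0.22 for the row of aminoacyl-tRNA synthetases to 0.11 for transcription and RNA processing. The synthetase row also holds the amidotransferase genes Qrsl1, Gatb and Gatc.

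Related families were read in the same way. Of 60 cytosolic ribosomal protein genes 4 were called lower and 2 higher, with a median of −0.11, and of 36 complex I subunit genes 2 were called lower and none higher, with a median of −0.10. Over all genes 3.19% were called lower and 3.13% higher. Log2 fold changes were below 0 for 46 of 60 cytosolic ribosomal protein genes and 24 of 36 complex I genes. The same held for 49 of 76 mitoribosome genes, against 50.7% of all genes. The difference between these families and the mitoribosome was not tested.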

How the data were processed

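Total RNA of each heart (250 ng) was labelled with biotin and hybridised to a Clariom S array, and the authors summarised the arrays by RMA into the deposited log2 levels, whose RMA version and settings are not given in the sources used here. These log2 levels were used without further normalization, since the array medians were close. Of 22206 probe sets, 19572 carried 1 gene symbol in the platform annotation and 2634 carried none. The brightest probe set stood for a gene, which mattered for 55 of 19505 genes and for none of the mitoribosome genes. CKD and sham hearts, as labelled, were compared with limma (3.58.1, R 4.3.3; lmFit, eBayes) over all genes, with the criterion of the methods (fold over 1.5, unadjusted p under 0.05) and Benjamini-Hochberg adjustment beside it, after the script had been tested on simulated data. Arrays have no read depth, and precision rested on 3 hearts per group (median SE of a log2 fold change 0.23). The labels do not say whether hearts shared a day or a batch.

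The text names every mitoribosome gene past the criterion, the 10 with the smallest p, the 4 brightest and 4 dimmest, the Mrps18 paralogs, mitoribosome proteins of other symbols, called genes of the translation lists (or the smallest p) and the promoter factors; other genes named, such as those that varied most among CKD hearts, were chosen after their values were seen. The genes, lists and tests were chosen with earlier results of these data known. Subunit, bacterial-type and cell type lists come from general knowledge. The alternatives were the methods' t-test, a variance trend with robust fit, array weights, quantile, cyclic loess and median scaling, leaving out the dimmest 25% or 50% of genes, averaged probe sets, a replicate block, other fold limits and leaving out each heart. Promoter windows and gene coordinates are from RefSeq (GRCm38.p6).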

Additional observations from a re-analysis of the deposited data

How the results depend on the processing

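No gene of the family passed an adjusted p of 0.05 in any of the 10 alternatives with the same criterion or without any single heart. The number called (7) stayed between 5 and 10 in these alternatives, was 9 with no fold limit and fell to 1 (Mrpl14) past 2-fold. Over all genes the 1233 calls fell to 625 with the methods' t-test and to 286 past 2-fold, rose to 2051 with array weights (10 in the family) and were 1783 with no fold limit. Calls lower in CKD within the family (4) were 2 with the methods' t-test and with either filter on dim genes, and 7 with array weights. Without single hearts, the count in the family ran from 3 (without CKD replicate 3) to 12 (without CKD replicate 1), and over all genes from 982 (without sham replicate 3) to 2037 (without CKD replicate 1). The large subunit median ran from −0.12 to −0.04, the small subunit median from −0.28 to 0.04, and the large minus small difference from −0.08 (without sham replicate 3) to 0.16 (without sham replicate 1). Mrpl23 also missed the fold limit after renewed quantile (−0.57) or cyclic loess (−0.58) normalization, and Mrpl52 and Mrps18b missed the p with the methods' t-test and with either filter. Mrpl14, Mrps26, Mrpl3 and Mrpl41 kept the call in all 10 alternatives. The cause of these changes was not tested.

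The labels do not say whether same-numbered hearts are pairs, although a figure legend of the study speaks of pairs of sham and CKD mice. The deviations of same-numbered hearts from their group means correlated at −0.184, −0.025 and −0.187. Such deviations, from means of 3 hearts, cannot decide whether hearts were paired. With the replicate number as a block, 6 genes of the family and 1201 of all genes were called, and Mrpl52 (−0.63) was not.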
